A study of Mus musculus with 12 samples.

Results

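The tricarboxylic acid (TCA) cycle and mitochondrial fatty acid oxidation were followed through 44 genes in cultured mouse microglia, 24 for the cycle and the reactions that feed it and 20 for beta-oxidation. A gene was a member if its symbol stood on a list of these enzymes, a rule that uses names and not levels. All 44 were found among the 46262 genes of the TPM table, each under 1 gene identifier, and all 44 passed the filter on low values (at least 1 TPM in at least 3 libraries). TPM is a share of a library's transcripts after correction for transcript length, and a gene's value here is the sum over its transcripts.

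Microglia, the resident macrophages of the brain, came from wild-type animals by way of mixed glial cultures (neonatal, by the name of the deposited table; no label gives an age), and the design text describes these cultures as independent. The 4 groups of 3 libraries were forebrain microglia with CSF-1 at 20 ng/ml, forebrain microglia with IL-34 at 100 ng/ml, cerebellar microglia with CSF-1 at 20 ng/ml and cerebellar microglia with IL-34 at 100 ng/ml, each for 24 h. Both cytokines act through the receptor CSF1R. All groups received a ligand, so no group shows the cells without one, and ligand and dose cannot be told apart.

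The TCA cycle runs in the mitochondrial matrix. Pyruvate dehydrogenase turns pyruvate into acetyl-CoA, citrate synthase joins it to oxaloacetate, and the following dehydrogenases release carbon dioxide and pass electrons to NADH and, at succinate dehydrogenase, to the respiratory chain. Beta-oxidation shortens fatty acids that were activated with coenzyme A and carried into mitochondria as carnitine esters, and the acetyl-CoA it makes enters the same cycle. In macrophages, the balance between these routes and glycolysis is known to shift with activation, and broken points in the cycle let citrate and succinate build up.

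Against the label of microglia, the markers Csf1r, Trem2, Itgam, Cx3cr1 and Aif1 had means over all libraries of 1233, 843, 322, 301 and 186 TPM, while P2ry12 and Tmem119 were lower at 9.51 and 13.9 TPM. Markers of other cells were low but not the same in the 4 groups. Of 8 astrocyte markers, the sum lay between 20.4 and 24.8 TPM in forebrain and between 11.8 and 15.4 TPM in cerebellum, and of 4 ependymal or choroid plexus markers between 1.75 and 2.41 TPM and between 15.2 and 58.4 TPM. The 8 oligodendrocyte markers, mostly Mbp, summed to between 55.8 and 69.7 TPM in forebrain and between 72.1 and 97.2 TPM in cerebellum. Within cerebellum the oligodendrocyte sum also differed by ligand without overlap, between 88.3 and 97.2 TPM with CSF-1 and between 72.1 and 78.8 TPM with IL-34. The 5 endothelial markers summed to between 7.01 and 12.03 TPM in forebrain and between 9.875 and 12.88 TPM in cerebellum. Of these 5, only Cldn5 was listed at 0 in all libraries. The 6 neuron markers summed to between 1.74 and 4.58 TPM in forebrain and between 0.381 and 1.30 TPM in cerebellum. For the 6 fibroblast or mesenchymal markers the sums were 1.42 to 2.53 TPM and 0.8765 to 2.22 TPM. The libraries also differed in how short their transcripts reached. The length floor, the 1st percentile of length among transcripts of at least 5 TPM, was 621, 598 and 669 nt in forebrain CSF-1 cultures, 669, 632 and 621 nt in forebrain IL-34 cultures, 661, 599 and 592 nt in cerebellar CSF-1 cultures and 503, 491 and 580.0 nt in cerebellar IL-34 cultures. Every cerebellar IL-34 library thus lay under the other 9.

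Letters of the promoters are shown for the members whose windows held a searched motif, since several of these genes are described below. RefSeq windows on GRCm38.p6, from 250 bases before to 50 bases after a gene's start, were found for 41 of the 44 members, 49 windows in all. The motif of nuclear respiratory factor 1, a transcription factor of many nuclear genes for mitochondrial proteins, was searched on both strands. It is the run of 10 bases in capitals on the first lines below, in which the sixth base may be any (Sucla2 shows it on the other strand). It was in 12.2% of the member windows, for 6 genes, and in 4.60% of all 32851 windows of the same length. TCAAGGTCA, the element of the estrogen-related receptors, was in 1 member window, that of Sdhd, and in 0.423% of all windows. The element of the PPAR receptors, a direct repeat of AGGTCA with 1 base of any kind between, was in 0 member windows and in 0.0396% of all. No match overlapped a match of another motif. Each window of up to 40 bases below runs 5′ to 3′ along the gene, with the matched bases in capitals. Sdha has 3 matches, of which the one nearest its start is shown.
Dld, chr12:31351422-31351447, minus strand: gatgacgtatatgttGCGCAGGCGCa
Etfb, chr7:43444046-43444085, plus strand: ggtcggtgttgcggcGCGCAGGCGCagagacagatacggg
Etfdh, chr3:79628871-79628910, minus strand: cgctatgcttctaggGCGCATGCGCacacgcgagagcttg
Sdha, chr13:74350226-74350265, minus strand: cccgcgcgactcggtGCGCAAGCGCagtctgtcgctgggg
Sdhd, chr9:50603904-50603943, minus strand: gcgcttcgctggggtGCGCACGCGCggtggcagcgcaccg
Sucla2, chr14:73552754-73552793, plus strand: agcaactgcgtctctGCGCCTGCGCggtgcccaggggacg
Sdhd, estrogen-related receptor element, chr9:50603800-50603828, minus strand: ttccgggttgtagagTGACCTTGAgccct

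Ranked by the mean of all 12 libraries, Mdh2 (mitochondrial malate dehydrogenase) had the highest level of the 44 genes at 404 TPM. Next came Sdhb, Sdha, Idh1 and Sdhd at 305, 219, 208 and 203 TPM. Pcx, the pyruvate carboxylase that makes oxaloacetate directly, was the lowest. It was read at 2.62, 2.77 and 2.30 TPM in forebrain CSF-1 cultures, 2.71, 2.02 and 2.37 TPM in forebrain IL-34 cultures, 2.25, 2.85 and 2.33 TPM in cerebellar CSF-1 cultures and 2.74, 1.43 and 2.37 TPM in cerebellar IL-34 cultures. The groups overlapped, and the ligand log2 fold change was -0.09 (SE 0.17, adjusted p = 0.887) in forebrain and -0.15 (SE 0.17, adjusted p = 0.586) in cerebellum. Among the beta-oxidation genes, Etfa and Acsl5 led with 144 and 140.4 TPM, and Cpt2 and Acsl3 were lowest with 17.6 and 20.1 TPM.

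**Figure D1:**
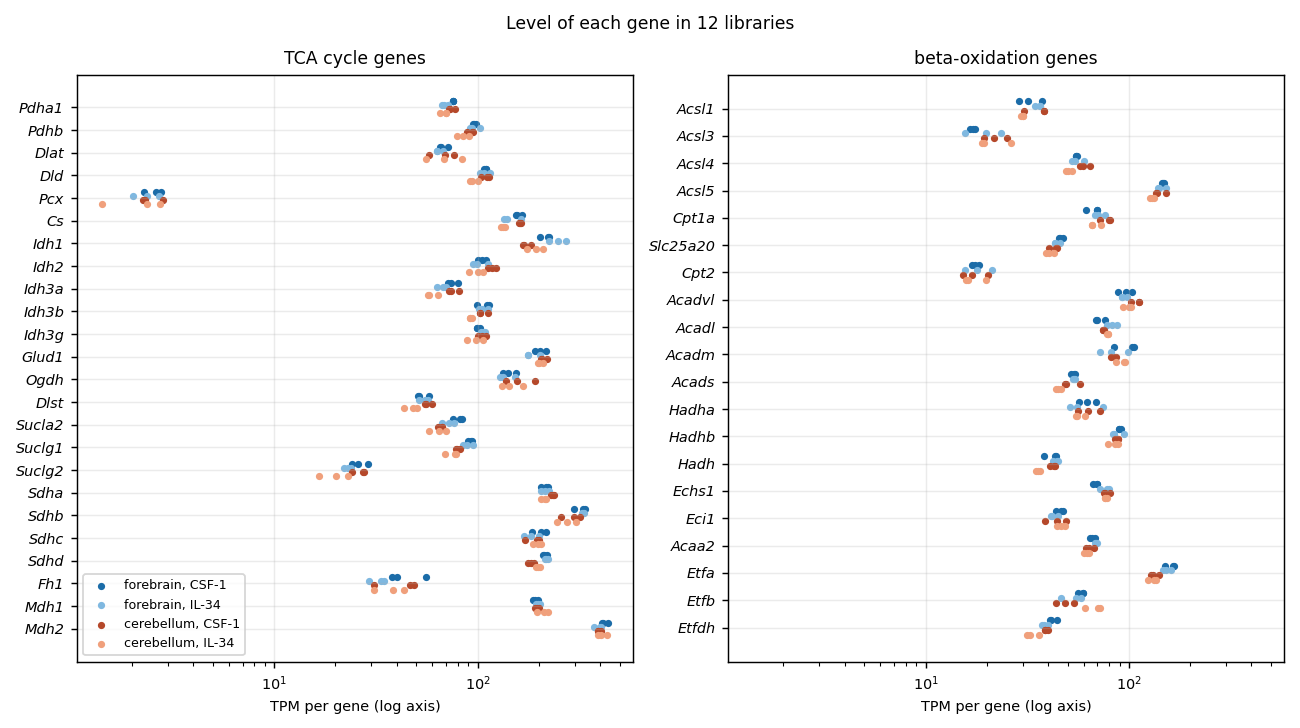
TPM of each gene on a log axis, 1 point per library, coloured by group, with TCA cycle genes on the left and beta-oxidation genes on the right. Points of a gene lie close together beside the distance between genes, from Pcx near 2 TPM to Mdh2 near 404 TPM.

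Ratios between partner subunits and isozymes are given as a description. Sucla2, the beta subunit of the ATP-forming succinyl-CoA synthetase, was read at 3.06 ± 0.267 (SD, n = 3) times the level of Suclg2, the beta subunit of the GTP-forming enzyme, in forebrain CSF-1 cultures, 3.13 ± 0.0835 in forebrain IL-34 cultures, 2.50 ± 0.12 in cerebellar CSF-1 cultures and 3.27 ± 0.703 in cerebellar IL-34 cultures. For Idh1, the cytosolic NADP isocitrate dehydrogenase, over its mitochondrial counterpart Idh2, the ratios were 2.05 ± 0.0452, 2.43 ± 0.193, 1.47 ± 0.0556 and 1.96 ± 0.324 in the same order. The forebrain ratios were the higher ones under each ligand, without overlap under CSF-1. Within succinate dehydrogenase, the iron-sulfur subunit Sdhb stood at 1.21 to 1.94 times the membrane anchor Sdhc over the 12 libraries. These are gene sums, and transcripts annotated as protein-coding held 68.2% of Sdhb TPM but 100% of Sdhc TPM. The protein-coding part of Sdhb had group means of 213, 213, 194 and 211 TPM in the same order. Those of Sdhc were 202, 184, 188 and 197 TPM.

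Summed over its 24 genes, the TCA cycle took 3311, 3319.8 and 3338 TPM in forebrain CSF-1 cultures, 3357, 3182 and 3205 TPM in forebrain IL-34 cultures, 3232, 3193 and 3228 TPM in cerebellar CSF-1 cultures and 3007, 3101 and 3167 TPM in cerebellar IL-34 cultures. The 3 cerebellar IL-34 libraries were the lowest of the 12. Group means were 3323 ± 13.8, 3248 ± 95.4, 3218 ± 21.5 and 3092 ± 80.3 TPM (SD, n = 3). The 20 beta-oxidation genes took less, with means of 1338 ± 2.89, 1328 ± 49.3, 1317 ± 30.4 and 1266 ± 19.1 TPM, and again the 3 cerebellar IL-34 libraries were lowest. The sums are given as a description, since TPM is a share and a gain by other transcripts lowers it. Median-of-ratios scaling divides each library by a size factor that centres the genes. These factors were 0.959, 0.951 and 0.982 in cerebellar IL-34 libraries and 1.055, 1.042 and 1.025 in cerebellar CSF-1 libraries. After that division the cerebellar IL-34 libraries were no longer the 3 lowest in either sum.

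Comparing IL-34 with CSF-1 in cerebellum asks whether the ligand alters these genes in that region. With limma on log2(TPM + 1), which tests each gene with a spread pooled over 12 libraries and adjusts by Benjamini-Hochberg over 12419 genes, 8 members were lower and 1 was higher with IL-34 at an adjusted p under 0.05. The 9 members are 20.5% of the 44, beside 12.8% of all genes tested, and by direction 9.82% of all genes were lower and 3% higher. The median log2 fold change of the 44 was -0.12, beside -0.10 over all genes. None of the 44 moved by 2-fold.

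In the cycle, the 5 members that fell on gene sums act between pyruvate and succinate. Cs encodes citrate synthase, which starts the cycle (ENSMUSG00000005683, chr10:128337734-128362479, plus strand, GRCm38, 1 transcript listed). It was read at 154, 156 and 165 TPM in forebrain CSF-1 cultures, 163, 139 and 136 TPM in forebrain IL-34 cultures, 164, 161 and 161 TPM in cerebellar CSF-1 cultures and 137, 131 and 134 TPM in cerebellar IL-34 cultures. In cerebellum every IL-34 library was lower than every CSF-1 library, while in forebrain 1 IL-34 library lay among the CSF-1 values. The cerebellar means were 162 ± 1.51 TPM (SD, n = 3) with CSF-1 and 134 ± 3.02 TPM (SD, n = 3) with IL-34, a log2 fold change of -0.27 (SE 0.06, adjusted p = 0.0244). Idh3a encodes the catalytic subunit of the NAD-dependent isocitrate dehydrogenase (ENSMUSG00000032279, chr9:54586334-54604661, plus strand, 1 transcript listed). Its values were 73.8, 71.9 and 79.8 TPM in forebrain CSF-1 cultures, 69.6, 62.9 and 67.5 TPM in forebrain IL-34 cultures, 81.2, 74.4 and 72.5 TPM in cerebellar CSF-1 cultures and 57.2, 57.5 and 63.7 TPM in cerebellar IL-34 cultures. The ligand groups did not overlap in either region, with IL-34 the lower in both, and the cerebellar log2 fold change was -0.35 (SE 0.07, adjusted p = 0.0126). The partner subunits Idh3b and Idh3g had -0.19 (SE 0.06, adjusted p = 0.0651) and -0.11 (SE 0.06, adjusted p = 0.255).

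Suclg2, the GTP-linked succinyl-CoA synthetase subunit named above (ENSMUSG00000061838, chr6:95473009-95718800, minus strand), was read at 24.2, 25.9 and 28.9 TPM in forebrain CSF-1 cultures, 23.8, 23.2 and 22.1 TPM in forebrain IL-34 cultures, 27.5, 27.4 and 24.2 TPM in cerebellar CSF-1 cultures and 23.2, 16.7 and 20.1 TPM in cerebellar IL-34 cultures. IL-34 libraries were below CSF-1 libraries in both regions, and the cerebellar log2 fold change was -0.39 (SE 0.11, adjusted p = 0.0419). Dlst, the succinyl-transferring core of the 2-oxoglutarate dehydrogenase complex, was read at 51.0, 51.5 and 57.7 TPM in forebrain CSF-1 cultures, 56.9, 51.8 and 54.9 TPM in forebrain IL-34 cultures, 59.4, 55.0 and 55.6 TPM in cerebellar CSF-1 cultures and 50.5, 43.7 and 48.2 TPM in cerebellar IL-34 cultures. Only the cerebellar IL-34 group stood below its CSF-1 group without overlap, with -0.25 (SE 0.07, adjusted p = 0.0436), and its partner Ogdh had -0.13 (SE 0.12, adjusted p = 0.51). Dld encodes the dihydrolipoamide dehydrogenase that the pyruvate and 2-oxoglutarate complexes share. It was read at 110.3, 110.0 and 107 TPM in forebrain CSF-1 cultures, 115, 107 and 102 TPM in forebrain IL-34 cultures, 113, 104 and 111 TPM in cerebellar CSF-1 cultures and 91.7, 93.8 and 100.0 TPM in cerebellar IL-34 cultures. Again the 3 cerebellar IL-34 libraries were the lowest of the 12, with -0.20 (SE 0.06, adjusted p = 0.0426).

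From succinate to oxaloacetate no member passed on gene sums. Fh1 had sums of 42.1 ± 9.73 TPM (SD, n = 3) with CSF-1 and 37.5 ± 6.26 TPM with IL-34. Its protein-coding transcripts alone, described below, were lower with IL-34. Sdha had -0.14 (SE 0.05, adjusted p = 0.0786), Sdhb -0.08 (SE 0.09, adjusted p = 0.545), Sdhc 0.07 (SE 0.08, adjusted p = 0.621) and Sdhd 0.12 (SE 0.04, adjusted p = 0.0876), so that the estimates within this 1 complex had both signs. Mdh1, cytosolic malate dehydrogenase, had 0.10 (SE 0.05, adjusted p = 0.202), and Mdh2 had 0.05 (SE 0.05, adjusted p = 0.516). Of the pyruvate dehydrogenase subunits other than Dld, Pdha1 had -0.12 (SE 0.05, adjusted p = 0.127), Pdhb -0.12 (SE 0.06, adjusted p = 0.203) and Dlat 0.02 (SE 0.13, adjusted p = 0.937).

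In beta-oxidation, 3 members fell and 1 rose in cerebellar IL-34 cultures. Acsl4 activates long-chain polyunsaturated fatty acids such as arachidonate. It was read at 64.2, 57.2 and 59.5 TPM in cerebellar CSF-1 cultures and 50.1, 49.3 and 52.4 TPM in cerebellar IL-34 cultures, without overlap, and at 55.2, 55.1 and 55.8 TPM in forebrain CSF-1 cultures and 60.2, 52.6 and 54.3 TPM in forebrain IL-34 cultures, with overlap. The cerebellar log2 fold change was -0.25 (SE 0.06, adjusted p = 0.0317), but that of its highest transcript alone was 0.0084. Hadh, the dehydrogenase of the third step for short and medium chains (ENSMUSG00000027984, chr3:131233419-131272101, minus strand), was read at 38.4, 43.99 and 43.4 TPM in forebrain CSF-1 cultures, 44.8, 44.04 and 42.2 TPM in forebrain IL-34 cultures, 42.6, 43.1 and 41.0 TPM in cerebellar CSF-1 cultures and 36.6, 35.0 and 35.6 TPM in cerebellar IL-34 cultures. The 3 cerebellar IL-34 libraries were the lowest of the 12 and close to each other, with -0.23 (SE 0.06, adjusted p = 0.0347). Cpt1a, the carnitine palmitoyltransferase that sets the rate of entry into mitochondria, did not pass. Its values were 61.6, 69.7 and 70.0 TPM in forebrain CSF-1 cultures, 76.6, 70.4 and 67.9 TPM in forebrain IL-34 cultures, 80.7, 79.3 and 72.3 TPM in cerebellar CSF-1 cultures and 72.6, 65.5 and 65.8 TPM in cerebellar IL-34 cultures, so that the cerebellar groups overlapped by 1 library, and the log2 fold change was -0.19 (SE 0.07, adjusted p = 0.116).

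The 3 genes of the electron transfer flavoprotein, which takes electrons from the acyl-CoA dehydrogenases to ubiquinone, differed in direction. Etfdh, the ubiquinone oxidoreductase, was read at 40.9, 44.04 and 41.6 TPM in forebrain CSF-1 cultures, 39.9, 38.2 and 37.4 TPM in forebrain IL-34 cultures, 39.8, 38.7 and 38.6 TPM in cerebellar CSF-1 cultures and 31.5, 32.6 and 36.1 TPM in cerebellar IL-34 cultures. The cerebellar IL-34 libraries were the 3 lowest, with -0.22 (SE 0.06, adjusted p = 0.0429). Etfb, the beta subunit (ENSMUSG00000004610, chr7:43444083-43457800, plus strand), was read at 59.2, 56.4 and 59.4 TPM in forebrain CSF-1 cultures, 46.1, 57.8 and 54.6 TPM in forebrain IL-34 cultures, 48.6, 43.6 and 53.9 TPM in cerebellar CSF-1 cultures and 72.2, 70.8 and 60.8 TPM in cerebellar IL-34 cultures. The same libraries were here the 3 highest of the 12, with 0.47 (SE 0.10, adjusted p = 0.0159). The only Etfb transcript read above 0 TPM is short, at 893 nt. Genes under 1000 nt had a median log2 fold change of 0.217 in this comparison, beside -0.10 over all genes. Whether Etfb rose beyond other genes of its length was not tested. Its partner Etfa was read at 141, 128 and 132 TPM in cerebellar CSF-1 cultures and 124, 132 and 136 TPM in cerebellar IL-34 cultures, with overlap and a log2 fold change of -0.03 (SE 0.06, adjusted p = 0.778). The ratio of Etfa to Etfb was 2.75 ± 0.0853 (SD, n = 3) in forebrain CSF-1 cultures, 2.94 ± 0.496 in forebrain IL-34 cultures, 2.76 ± 0.272 in cerebellar CSF-1 cultures and 1.94 ± 0.266 in cerebellar IL-34 cultures.

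**Figure D2:**
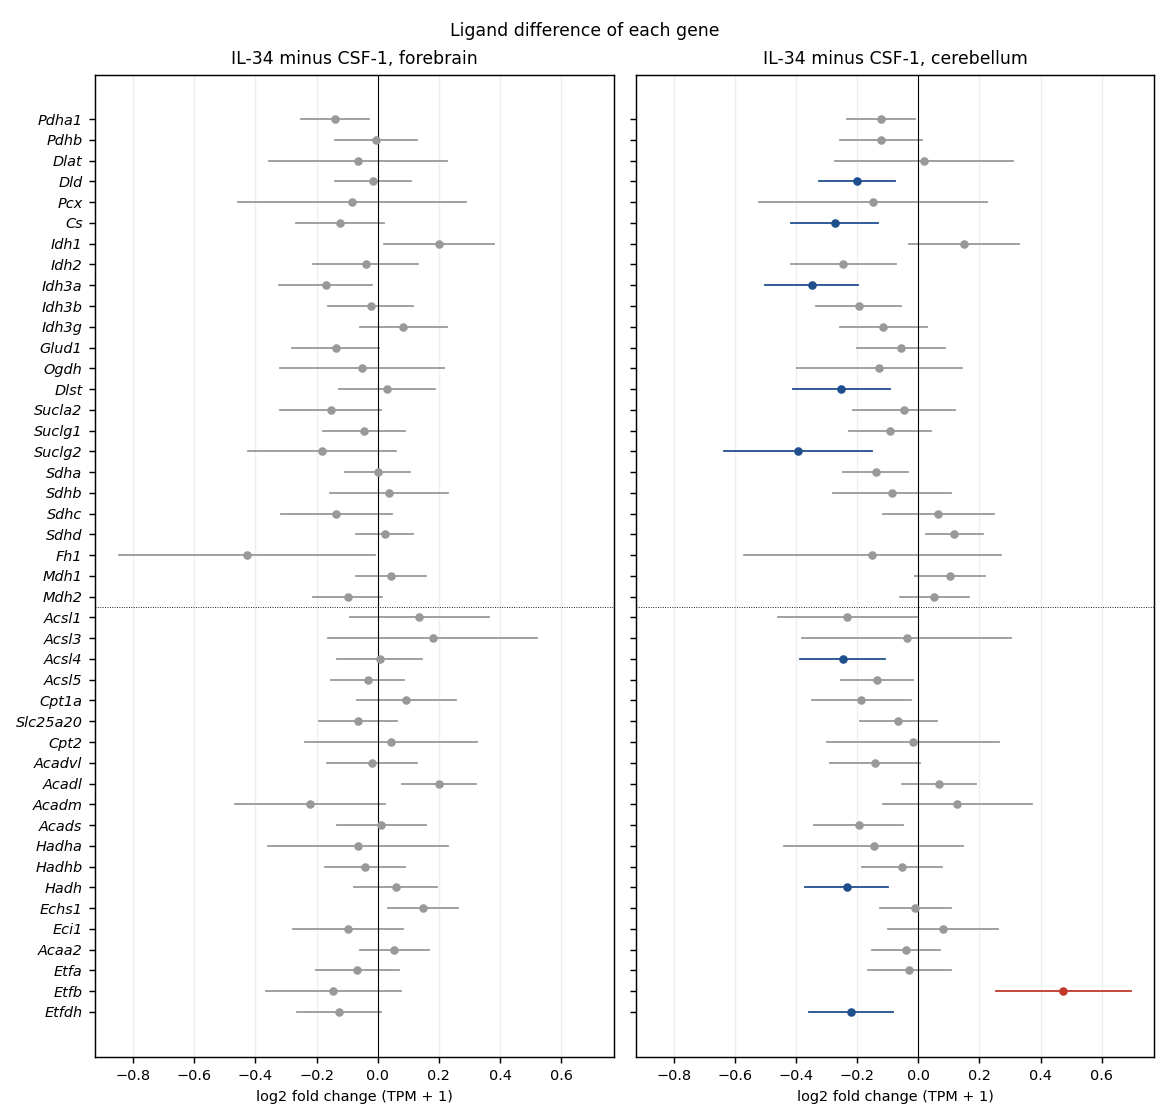
Log2 fold change (TPM + 1) of IL-34 minus CSF-1 for each gene with its 95% interval, forebrain on the left and cerebellum on the right. Grey marks genes that did not pass the test, blue genes that were lower and red genes that were higher; the dotted line divides TCA cycle genes from beta-oxidation genes. Coloured points stand in the cerebellar panel alone, 8 blue and 1 red.

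The cerebellar count rested on single libraries and on the scaling. Without cerebellum CSF-1 replicate 1, 2 or 3 the 9 became 0, 2 or 3, beside 3.49%, 5.48% and 8.7% of all genes. Without cerebellum IL-34 replicate 1 or 2 they became 4 or 0, beside 6.64% and 2.41%. The share of all genes thus fell as well, from 12.8%. Forebrain libraries enter through the pooled spread, and leaving out CSF-1 replicate 2 or IL-34 replicate 2 of that region gave 5 or 4, beside 10% and 9.33% of all genes. With median-of-ratios scaling in place of TPM, which centres the genes, 6 members passed and the split turned to 5 higher (Acadl, Etfb, Idh1, Mdh1 and Sdhd) and 1 lower (Idh3a), beside 5.58% of all genes higher and 4.07% lower. Idh3a and Etfb were the members called under both. Markers of the cells moved in the same comparison. Of 8 microglial markers 2 were called, both lower, which is 25% beside 12.8% of all genes. They were Itgam and Cx3cr1, with log2 fold changes of -0.44 (SE 0.08, adjusted p = 0.00853) and -0.46 (SE 0.12, adjusted p = 0.0299). The 8 estimates had both signs, 5 below 0 and 3 above, up to 0.28. Of the 4 oligodendrocyte markers tested Cspg4 fell, with -0.61 (SE 0.11, adjusted p = 0.00853), and 1 estimate was above 0. Their part in the ligand differences was not tested. Once each library's length floor entered the fit as a covariate, 0 members passed, beside 0.298% of all genes, and the 9 log2 fold changes kept their signs. Etfb then had 0.32 (SE 0.14, adjusted p = 0.41) and Idh3a -0.17 (SE 0.07, adjusted p = 0.376). The floor was lowest in the cerebellar IL-34 group itself, so the floor and the group cannot be told apart.

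In forebrain, 0 of the 44 members differed between the ligands by limma, beside 1.2% of all genes, and 6 had an unadjusted p under 0.05. Acadl, long-chain acyl-CoA dehydrogenase, was nearest to the threshold. It was read at 68.9, 70.0 and 76.2 TPM in forebrain CSF-1 cultures, 87.1, 77.8 and 82.7 TPM in forebrain IL-34 cultures, 75.2, 74.7 and 74.3 TPM in cerebellar CSF-1 cultures and 78.5, 77.9 and 78.5 TPM in cerebellar IL-34 cultures. The forebrain IL-34 libraries were above the CSF-1 libraries without overlap, with a log2 fold change of 0.20 (SE 0.05, adjusted p = 0.114), and in cerebellum 0.07 (SE 0.05, adjusted p = 0.441). Median-of-ratios scaling called 2 members higher with IL-34, Acadl with 0.25 (SE 0.04, adjusted p = 0.0151) and Echs1, the short-chain enoyl-CoA hydratase, with 0.20 (SE 0.04, adjusted p = 0.0406), beside 1.13% of all genes higher. Cpt1a had 0.09 (SE 0.07, adjusted p = 0.643) in forebrain.

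Averaged over both regions, 5 members were lower and 1 was higher with IL-34. These 6 are 13.6% of the members, beside 13.4% of all genes (10.7% lower and 2.73% higher), so the share was near the background. Median-of-ratios scaling called 7, of which 5 were higher (Acadl, Echs1, Idh1, Mdh1 and Sdhd) and 2 lower (Cs and Idh3a), beside 5.67% of all genes higher and 5.02% lower. Idh3a had -0.26 (SE 0.05, adjusted p = 0.00749), Cs -0.20 (SE 0.05, adjusted p = 0.0184), Etfdh -0.17 (SE 0.04, adjusted p = 0.0262) and Suclg2 -0.29 (SE 0.08, adjusted p = 0.0342). Pdha1, the catalytic alpha subunit of pyruvate dehydrogenase, was the fifth to fall. Its values were 75.9, 75.3 and 75.8 TPM in forebrain CSF-1 cultures, 71.3, 66.6 and 68.1 TPM in forebrain IL-34 cultures, 77.3, 73.5 and 72.8 TPM in cerebellar CSF-1 cultures and 65.0, 70.2 and 69.8 TPM in cerebellar IL-34 cultures. The IL-34 libraries were below the CSF-1 libraries in each region, with -0.13 (SE 0.04, adjusted p = 0.0348). Acadl rose, with 0.13 (SE 0.04, adjusted p = 0.0448). Idh3a kept this call in 12 of 12 fits that each left out 1 library, Cs in 11 of 12, Suclg2 in 5 of 12, Etfdh in 4 of 12, Pdha1 in 3 of 12 and Acadl in 2 of 12. The count of 6 became 2 without forebrain CSF-1 replicate 2, forebrain IL-34 replicate 2, cerebellum CSF-1 replicate 1 or 2 or cerebellum IL-34 replicate 2. Those fits called 7.45% to 9.24% of all genes. The count became 3 when replicate 3 of the forebrain CSF-1 or IL-34 group was left out, beside 8.42% and 7.97% of all genes. The call of Cs was lost without forebrain IL-34 replicate 2.

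The ligand differences of the 2 regions were then compared directly by the interaction. By limma 0 of 44 members passed, beside 0.145% of all genes, and 9 had an unadjusted p under 0.05. Etfb had the estimate farthest from 0, 0.62 (SE 0.14, adjusted p = 0.188), from a log2 fold change of -0.15 in forebrain and of 0.47 in cerebellum. Cpt1a had -0.28 (SE 0.10, adjusted p = 0.342), Hadh -0.29 (SE 0.09, adjusted p = 0.287) and Acsl4 -0.25 (SE 0.09, adjusted p = 0.328). The members called in cerebellum are therefore not shown to respond differently there than in forebrain.

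**Figure D3:**
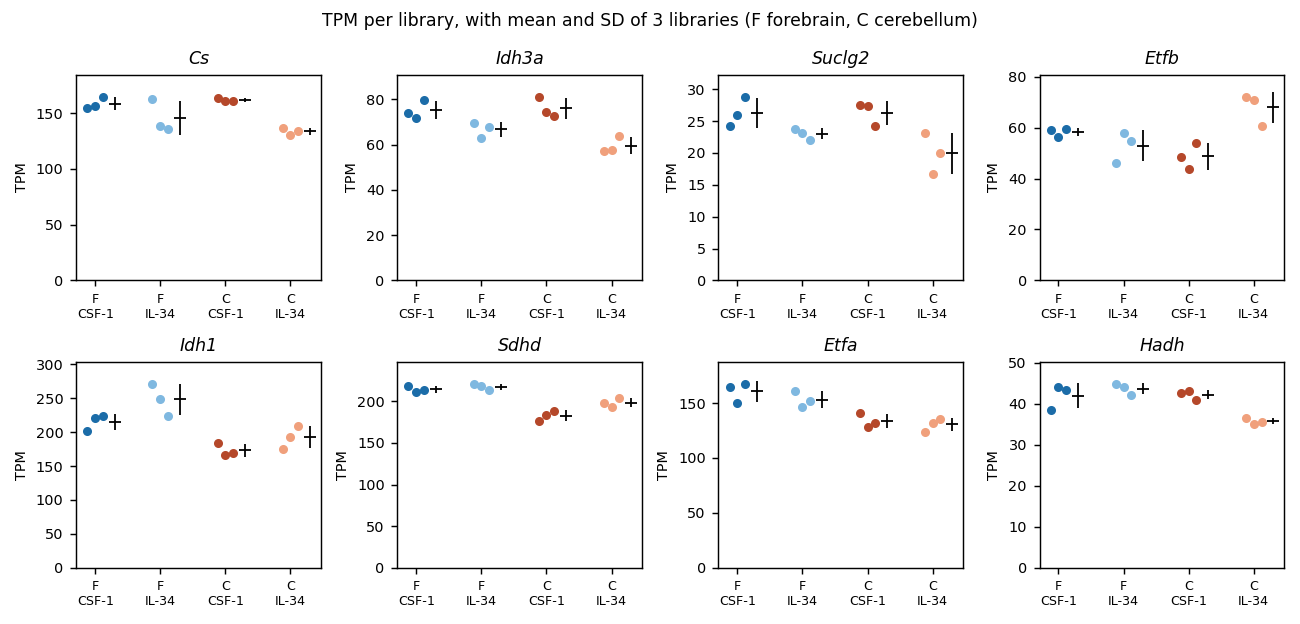
TPM of 8 members in each library, with the mean and SD of 3 libraries beside the points (F, forebrain; C, cerebellum; axes start at 0). Cs, Idh3a, Suclg2 and Hadh have their lowest mean and Etfb its highest in cerebellar IL-34 cultures, and Idh1, Sdhd and Etfa are lower in cerebellum than in forebrain under each ligand.

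Comparing cerebellum with forebrain under CSF-1 asks whether cells of the 2 regions differ under 1 ligand. Here 4 members were lower in cerebellum and 0 higher, which is 9.09% of the 44 beside 6.71% of all genes (3.42% lower). Sdhd, a membrane anchor of succinate dehydrogenase (ENSMUSG00000000171, chr9:50596357-50603812, minus strand, 1 transcript listed), was read at 219, 211 and 213 TPM in forebrain CSF-1 cultures, 221, 218 and 214 TPM in forebrain IL-34 cultures, 176, 184 and 189 TPM in cerebellar CSF-1 cultures and 198, 194 and 204 TPM in cerebellar IL-34 cultures. Every cerebellar library was below every forebrain library. With CSF-1 the means were 214 ± 4.19 TPM (SD, n = 3) in forebrain and 183 ± 6.38 TPM (SD, n = 3) in cerebellum, with -0.23 (SE 0.04, adjusted p = 0.00932), and with IL-34 the log2 fold change was -0.13 (SE 0.04, adjusted p = 0.0622). The CSF-1 call was kept in 12 of 12 fits without 1 library and in 16 of 16 other alternatives.

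Etfa, the flavoprotein alpha subunit (ENSMUSG00000032314, chr9:55454508-55512243, minus strand), was read at 164, 149.8 and 167 TPM in forebrain CSF-1 cultures and 141, 128 and 132 TPM in cerebellar CSF-1 cultures, without overlap, and fell by 0.27 on the log2 scale (SE 0.06, limma adjusted p = 0.0286). Idh1 (ENSMUSG00000025950, chr1:65158616-65186500, minus strand), which supplies cytosolic NADPH, was read at 202, 221 and 224 TPM in forebrain CSF-1 cultures, 271, 249 and 225 TPM in forebrain IL-34 cultures, 184, 167 and 169.6 TPM in cerebellar CSF-1 cultures and 176, 194 and 209 TPM in cerebellar IL-34 cultures. Forebrain was above cerebellum under each ligand, with -0.31 (SE 0.08, adjusted p = 0.0452) under CSF-1. Sucla2 was read at 81.6, 75.4 and 84.0 TPM in forebrain CSF-1 cultures, 76.5, 72.7 and 67.2 TPM in forebrain IL-34 cultures, 66.7, 67.0 and 63.9 TPM in cerebellar CSF-1 cultures and 57.7, 64.3 and 69.6 TPM in cerebellar IL-34 cultures. The regions were apart under CSF-1, with -0.28 (SE 0.08, adjusted p = 0.0496), and overlapped under IL-34. Without any 1 of the 6 libraries compared, the count of 4 became 1 or 2, beside 3.33% to 4.86% of all genes. Without forebrain IL-34 replicate 2 it became 2, beside 5.5%. Idh1 and Sucla2 also lost this call without cerebellum IL-34 replicate 2.

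Under IL-34, 5 members were lower and 1 was higher in cerebellum, 13.6% of the 44 beside 13.5% of all genes (8.22% lower), again near the background. Idh1 had -0.36 (SE 0.08, adjusted p = 0.0153) and Etfa, with 161, 146 and 152 TPM in forebrain IL-34 cultures and 124, 132 and 136 TPM in cerebellar IL-34 cultures, had -0.23 (SE 0.06, adjusted p = 0.0333). Hadh fell, with -0.28 (SE 0.06, adjusted p = 0.0132), a call kept in 11 of 12 fits without 1 library and lost without cerebellum IL-34 replicate 2. Suclg1, the alpha subunit that both succinyl-CoA synthetases share, was read at 90.1, 93.0 and 93.7 TPM in forebrain CSF-1 cultures, 94.7, 84.8 and 89.1 TPM in forebrain IL-34 cultures, 78.9, 78.7 and 82.0 TPM in cerebellar CSF-1 cultures and 77.7, 68.9 and 78.4 TPM in cerebellar IL-34 cultures. Cerebellum lay below forebrain under both ligands, with -0.25 (SE 0.06, adjusted p = 0.021) under IL-34 and -0.21 (SE 0.06, adjusted p = 0.0709) under CSF-1. Acads, short-chain acyl-CoA dehydrogenase, was read at 51.8, 53.5 and 54.0 TPM in forebrain CSF-1 cultures, 54.2, 52.8 and 53.5 TPM in forebrain IL-34 cultures, 49.0, 57.6 and 48.4 TPM in cerebellar CSF-1 cultures and 43.7, 46.2 and 44.7 TPM in cerebellar IL-34 cultures. The cerebellar IL-34 libraries were the 3 lowest, with -0.25 (SE 0.07, adjusted p = 0.0306). Etfb was higher, with 0.36 (SE 0.10, adjusted p = 0.0378). Genes under 1000 nt, as Etfb is, had a median log2 fold change of 0.205 here, beside -0.02 over all genes.

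The count under IL-34 was 1 without forebrain IL-34 replicate 1 or cerebellum IL-34 replicate 2, beside 9.83% and 6.75% of all genes. It was 2 without forebrain IL-34 replicate 3 or cerebellum IL-34 replicate 1, beside 8.5% and 8.29%. Markers of cells also moved with the region, with the following counts under each ligand. In cerebellum 3 of 6 astrocyte markers tested were lower and 0 higher. Of 4 ependymal or choroid plexus markers 2 were higher and 1 lower. Of 4 oligodendrocyte markers tested 2 were higher and 1 lower, and of 8 microglial markers 1 was higher and 0 lower. Of 3 endothelial markers and 1 fibroblast or mesenchymal marker tested 0 were called. The 1 neuron marker tested was lower in cerebellum under IL-34, with a log2 fold change of -1.01, and was not called under CSF-1. All genes had 6.71% called under CSF-1 and 13.5% under IL-34. The part of these markers in the differences was not tested. In bulk RNA, fewer cells of a type and less RNA per cell cannot be told apart. The 2 region comparisons have no libraries in common with each other, but each shares its groups with the ligand comparisons.

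**Figure D4:**
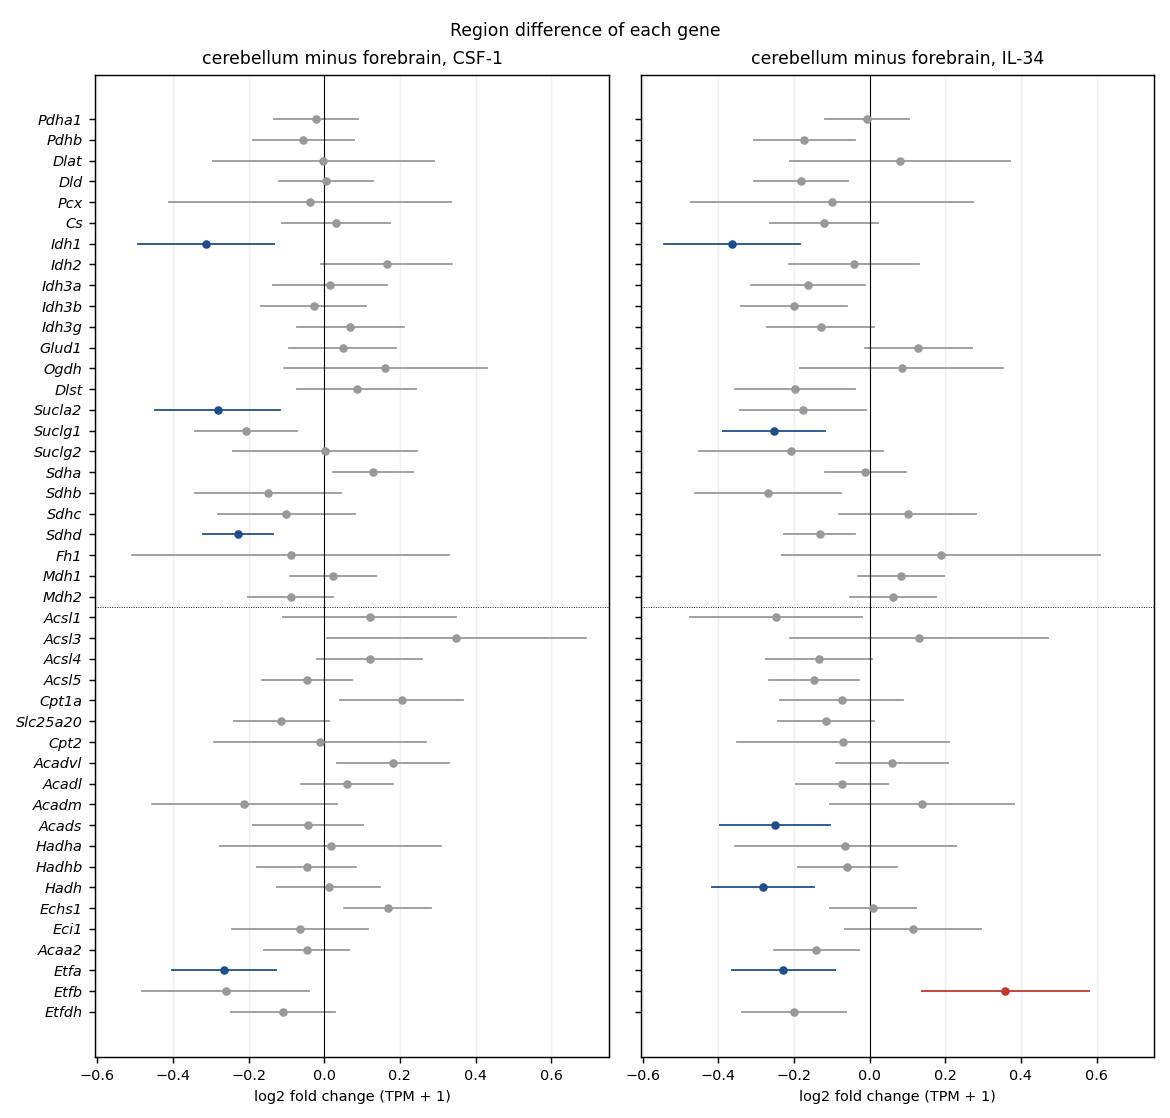
Log2 fold change (TPM + 1) of cerebellum minus forebrain for each gene with its 95% interval, CSF-1 on the left and IL-34 on the right, coloured as passing lower (blue), passing higher (red) or not passing (grey). Sdhd, Etfa, Idh1 and Sucla2 are blue on the left, and Hadh, Idh1, Suclg1, Acads and Etfa are blue and Etfb red on the right.

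Over the 6 comparisons, 17 members were called at least once and 27 not at all. Among those 27 the highest group mean was 1.06 to 1.37 times the lowest. In fatty acid activation, Acsl1 ranged from 28.6 to 38.2 TPM over the 12 libraries, Acsl3 from 15.6 to 26.3 TPM and Acsl5 from 126 to 152 TPM. In the carnitine shuttle, the carrier Slc25a20 ranged from 39.1 to 47.4 TPM and Cpt2, which frees the acyl-CoA inside, from 15.3 to 21.2 TPM. Within a group, the SD of Slc25a20 was at most 2.10 TPM, while that of Acsl3 reached 4.10 TPM. Of the later steps, Acadvl, the dehydrogenase for very long chains, ranged from 87.9 to 112 TPM, Hadhb, the thiolase subunit of the trifunctional protein, from 79.1 to 94.8 TPM, Eci1, an enoyl-CoA isomerase, from 38.7 to 49.0 TPM and the thiolase Acaa2 from 60.3 to 69.7 TPM. In the cycle, Idh2 ranged from 91.0 to 123 TPM, Glud1 from 177 to 221 TPM, Ogdh from 129 to 191 TPM, Sdhb from 247 to 337 TPM and Mdh1 from 186 to 222 TPM.

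A gene sum can hide a change of transcript. For 31 of the 44 members at least 90% of TPM came from transcripts annotated as protein-coding in GENCODE M21, and for 6 under 80%. As a sum, Mdh2 in cerebellar CSF-1 cultures and then with IL-34 was 394 ± 7.45 TPM (SD, n = 3) and 409 ± 21.7 TPM (SD, n = 3). Its coding transcript of 1456 nt was at 340.1 ± 18.9, 307 ± 18.6, 292 ± 7.33 and 254 ± 20.3 TPM (SD, n = 3) in forebrain CSF-1, forebrain IL-34, cerebellar CSF-1 and cerebellar IL-34 libraries. The 1112 nt transcript annotated for nonsense-mediated decay, a pathway that degrades RNA with an early stop codon, had the opposite order of group means, 76.6 ± 8.87, 83.2 ± 10.7, 99.6 ± 1.61 and 146 ± 31.0 TPM.

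Fh1, fumarate hydratase, had its protein-coding TPM at 31.6, 32.2 and 34.6 in forebrain CSF-1 cultures, 28.8, 31.2 and 30.5 in forebrain IL-34 cultures, 30.9, 34.5 and 33.9 in cerebellar CSF-1 cultures and 24.8, 25.1 and 25.4 in cerebellar IL-34 cultures. These coding values were steady within groups and lowest in cerebellar IL-34 cultures. The rest of the gene, chiefly a 599 nt transcript, varied from library to library. Acadm, medium-chain acyl-CoA dehydrogenase, had coding values of 82.3, 79.0 and 72.2 TPM in cerebellar CSF-1 cultures and 68.1, 66.2 and 69.3 TPM with IL-34, and a 690 nt transcript with a retained intron at 3.55 ± 6.15 and 20.98 ± 4.86 TPM (SD, n = 3). Forebrain did not share this order. Coding transcripts there held 72.6%, 67.3% and 93.4% of Acadm TPM with CSF-1 and 96.6%, 94.4% and 71.7% with IL-34. The part from other transcripts thus varied from library to library. Hadha, the alpha subunit of the trifunctional protein, was alone in having a highest transcript annotated as not coding, with 24.1% of its TPM from coding transcripts.

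**Figure D5:**
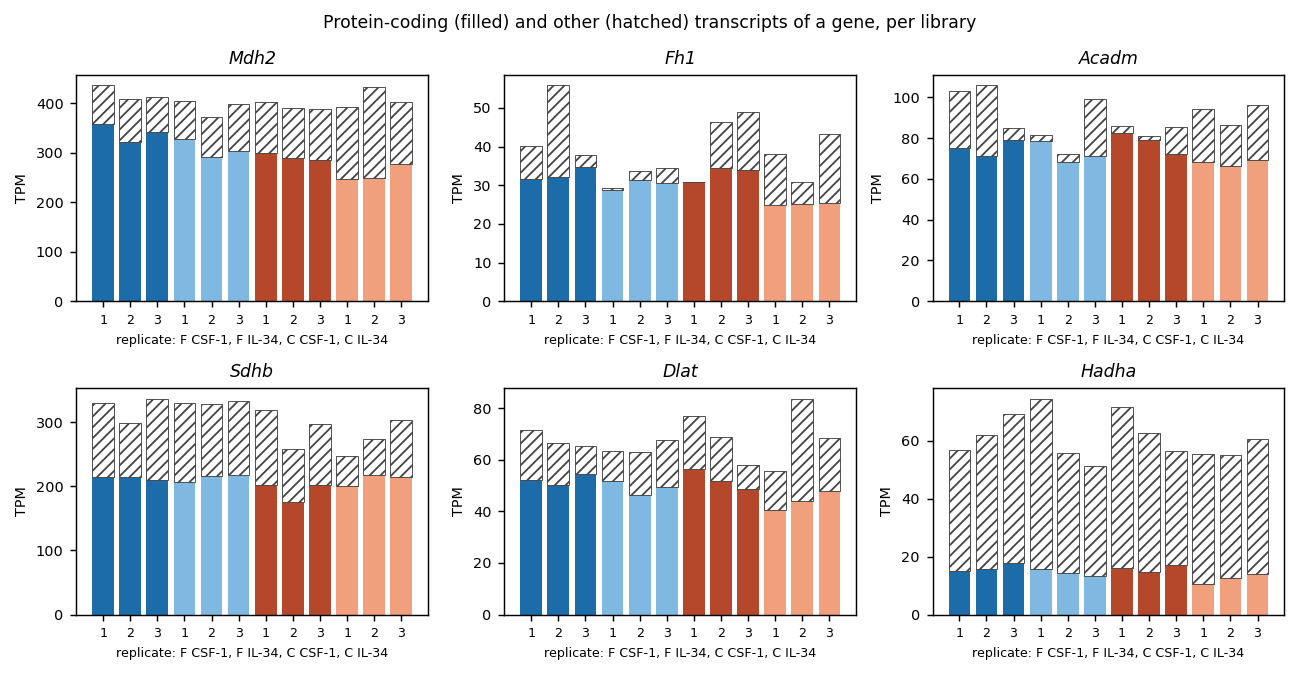
TPM of 6 genes in each library, with the protein-coding part filled and the other transcripts hatched; within a panel the 12 bars run by group, replicates 1 to 3 of forebrain CSF-1, forebrain IL-34, cerebellum CSF-1 and cerebellum IL-34 (axes start at 0). The filled part of Mdh2 and Fh1 is lowest in cerebellar IL-34 cultures, while the whole bars are not.

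Refitted on protein-coding transcripts alone, cerebellum gave 15 called members between the ligands, 14 lower and 1 higher, beside 13.5% of all genes lower. They included 8 of the 9 called on gene sums, although genes such as Cs and Acsl4, whose TPM is all from coding transcripts, have the same values in both. Fh1 was added with -0.39 (SE 0.06, adjusted p = 0.00564) and Idh2 with -0.28 (SE 0.07, adjusted p = 0.0195). The other additions were Idh3b, Idh3g, Dlat, Glud1 (glutamate dehydrogenase) and Hadha, so that all 3 subunits of NAD-dependent isocitrate dehydrogenase were lower. Between the regions under IL-34, 12 were called, 11 of them lower beside 10.6% of all genes, with Mdh2 at -0.26 (SE 0.06, adjusted p = 0.0182) and Fh1 at -0.26 (SE 0.06, adjusted p = 0.02). These fits leave out non-coding transcripts but have no term for the length floor, whose part in these counts was not tested.

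Genes around the cycle were taken from a list of 36, of which 34 passed the filter. In cerebellum 4 were lower and 2 higher with IL-34, 17.6% of the 34 beside 12.8% of all genes. Pdk1, a kinase that switches pyruvate dehydrogenase off, was read at 43.7, 46.0 and 50.8 TPM in forebrain CSF-1 cultures, 38.2, 32.7 and 36.8 TPM in forebrain IL-34 cultures, 43.7, 43.3 and 41.7 TPM in cerebellar CSF-1 cultures and 21.4, 24.9 and 28.6 TPM in cerebellar IL-34 cultures. All IL-34 libraries were below the CSF-1 libraries of their region, with -0.77 (SE 0.10, adjusted p = 0.00248) in cerebellum. Pdk2, Pdk3 and Pdk4 had means over all libraries of 11.1, 17.5 and 0.209 TPM beside 37.6 TPM for Pdk1. Sdhaf4, an assembly factor of succinate dehydrogenase, rose, with a log2 fold change of 1.11 (SE 0.17, adjusted p = 0.00429), and Glul, glutamine synthetase, rose, with a log2 fold change of 0.73 (SE 0.15, adjusted p = 0.0149). The length floor was lowest in cerebellar IL-34 cultures, so its part in these differences cannot be told apart from the group.

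Between regions, Acod1, which draws cis-aconitate out of the cycle to make itaconate in activated macrophages, was lower in cerebellum under IL-34. It was read at 13.9, 12.7 and 19.9 TPM in forebrain CSF-1 cultures, 17.4, 20.8 and 19.2 TPM in forebrain IL-34 cultures, 7.77, 9.17 and 10.1 TPM in cerebellar CSF-1 cultures and 10.6, 6.72 and 11.8 TPM in cerebellar IL-34 cultures. Cerebellar libraries were below forebrain libraries under IL-34, with -0.94 (SE 0.20, adjusted p = 0.0112), and with CSF-1 the log2 fold change was -0.70 (SE 0.20, adjusted p = 0.0591). In all, 2 of the 34 were higher and 2 lower in cerebellum under IL-34, and 2 and 2 under CSF-1, each 11.8% of the list, beside 13.5% of all genes under IL-34 and 6.71% under CSF-1.

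Of 37 further genes of fatty acid oxidation, 31 passed the filter, and in cerebellum 1 was lower and 0 higher with IL-34, 3.23% of the 31 and under the 12.8% of all genes. This was Acat1, the mitochondrial acetoacetyl-CoA thiolase, with -0.33 (SE 0.08, adjusted p = 0.0236). Slc27a1, a fatty acid transport protein with acyl-CoA synthetase activity, was read at 158, 175 and 171 TPM in forebrain CSF-1 cultures, 188, 178 and 168 TPM in forebrain IL-34 cultures, 235, 246 and 229 TPM in cerebellar CSF-1 cultures and 235, 227 and 225 TPM in cerebellar IL-34 cultures. Cerebellum was above forebrain in every library, with 0.49 (SE 0.06, adjusted p = 0.000527) under CSF-1 and 0.36 (SE 0.06, adjusted p = 0.0023) under IL-34. The peroxisomal thiolases Acaa1a and Acaa1b were lower in cerebellum under IL-34, with -0.44 (SE 0.11, adjusted p = 0.0225) and -1.59 (SE 0.35, adjusted p = 0.0135). These 2 genes are close copies and may share reads. In all, 1 of the 31 was higher and 3 lower in cerebellum under IL-34, 12.9% beside 13.5% of all genes. With CSF-1 the list had 1 higher and 0 lower, 3.23% beside 6.71% of all genes. The other Cpt1 genes were scarce, with Cpt1b at 0.0109 and Cpt1c at 0.927 TPM over all libraries beside 71.0 TPM for Cpt1a.

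Regulators came from a list of 25, with 21 past the filter. In cerebellum 3 were lower and 0 higher with IL-34, 14.3% of the 21 and near the 12.8% of all genes. Esrra, the estrogen-related receptor alpha that drives many genes of oxidative metabolism, was read at 30.3, 33.96 and 34.9 TPM in forebrain CSF-1 cultures, 27.3, 27.3 and 29.8 TPM in forebrain IL-34 cultures, 32.9, 34.2 and 37.1 TPM in cerebellar CSF-1 cultures and 25.5, 28.4 and 28.3 TPM in cerebellar IL-34 cultures. IL-34 was lower in both regions without overlap, with -0.33 (SE 0.08, adjusted p = 0.0227) in cerebellum and -0.28 (SE 0.05, adjusted p = 0.00914) as the mean of both. Pprc1, a coactivator of the PGC-1 family, had -0.50 (SE 0.12, adjusted p = 0.0252) and Prkaa1, a catalytic subunit of AMP-activated kinase, -0.25 (SE 0.07, adjusted p = 0.0469) in cerebellum. Ppara and Ppargc1a, the best known inducers of beta-oxidation in liver and muscle, were near 0 at means of 0.0116 and 0.113 TPM, whereas Pparg had 45.7 TPM and Nrf1, nuclear respiratory factor 1, 39.6 TPM.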

How the data were processed

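RNA of 12 mouse microglia libraries was measured after cDNA synthesis with the SMART-Seq v4 kit, an unstranded kit, per the labels' protocols. One protocol label names human tissue, although the organism and the other labels are mouse. The authors deposited TPM for each Ensembl transcript, computed with kallisto 0.43.0 on GRCm38 per the submitters' processing notes. The annotation release was not given in the sources used here, nor was any bias correction. TPM keeps no depth, so precision rests on the spread between libraries, and the p-values measure the spread between these cultures only.

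TPM was summed per gene over the 115879 transcripts. limma 3.58.1 in R 4.3.3 fitted 4 group means to log2(TPM + 1), a scale that understates changes of low genes, with a variance trend, 8 residual degrees of freedom and two-sided tests, adjusted by Benjamini-Hochberg over 12419 genes (1 TPM or more in 3 or more libraries), and the script was tested on simulated data. All adjusted p-values are from limma. Transcript class and length came from GENCODE M21, in which 114255 transcripts (98.6%) were found.

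The members and lists were chosen with earlier results of these data known. Values in every library are printed for members called in at least 1 comparison and for Cpt1a, Cs, Pdha1 and Pcx, and up to 4 genes with the smallest p are named from each other list. Genes of those lists named for their level alone, and the members whose transcripts are described, were chosen after their values were seen. Alternatives covered the pseudocount, the filter, the scaling, the variance trend, weights for libraries, a replicate block, the transcripts summed, the length floor and leaving out each library. Items withheld from this text are not reported here.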

Additional observations from a re-analysis of the deposited data

How the results depend on the processing

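The limits lie in the small differences, the missing depth and the length floor. Counts of called members are followed in parentheses by the share of all genes that the same fit called. In forebrain the 0 (1.2%) became 2 (2%) with median-of-ratios scaling, 1 (1.33%) with quantile normalization, 1 (3.87%) with transcripts of 1000 nt or more, and 4 (8.02%) with trends of length and GC content removed from those as well. In cerebellum the 9 (12.8%) became 5 (3.24%) with no filter on low values, 4 (9.46%) with quantile normalization, 5 (9.54%) with no variance trend, 3 (6.26%) with only the groups compared, 16 (23.1%) with transcripts of 1000 nt or more, 15 (17%) with protein-coding transcripts and 0 (0.298%) with the length floor as a covariate. For the mean of both regions the 6 (13.4%) became 11 (20.7%) with library weights, 11 (24.5%) with transcripts of 1000 nt or more, 12 (18.1%) with protein-coding transcripts and 2 (5.01%) with the length floor as a covariate. Under CSF-1 the 4 (6.71%) that differed between regions became 1 (2.32%) with no filter, 1 (6.53%) with no variance trend, 1 (3.67%) with only the groups compared, 2 (4.84%) with the highest transcript of each gene and 10 (16.2%) with transcripts of 1000 nt or more after removal of trends. Under IL-34 the 6 (13.5%) became 11 (18.8%) with library weights, 2 (9.54%) with only the groups compared, 12 (20.1%) with transcripts of 1000 nt or more, 12 (15.3%) with protein-coding transcripts, 12 (12%) with the highest transcript of each gene and 0 (1.01%) with the length floor as a covariate. Leaving out 1 library gave 0 to 10 (2.41% to 14.2%) in cerebellum, 2 to 8 (7.45% to 16.8%) for the mean, 1 to 4 (3.33% to 7.39%) between regions under CSF-1, 1 to 9 (6.75% to 14.3%) under IL-34, and 0 in forebrain and for the interaction.

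Whether equal replicate numbers mark paired samples was left undecided. The deviations of same-numbered libraries from their group means correlated between -0.454 and 0.245 over the 12 pairs, and those of different-numbered libraries between -0.455 and 0.569. Deviations centred within groups of 3 libraries cannot settle pairing. With the replicate number as a block, 4 (7.94%) were called in cerebellum, 2 (9.86%) for the mean of both regions and 2 (4.94%) between regions under CSF-1. With a replicate block within each region, 0 (1.56%) were called in cerebellum and 0 (3.18%) for the mean.

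Directions turned against the gene sums for 6 members, where 1 of both values was called. Log2 fold changes in cerebellum were -0.24 for Dlat with transcripts of 1000 nt or more and with protein-coding transcripts, -0.19 for Acadm with transcripts of 1000 nt or more and 0.0084 for Acsl4 with its highest transcript. Between regions under IL-34 they were -0.31 for Sdhc with transcripts of 1000 nt or more and -0.25 with trends removed as well, -0.26 for Fh1 with transcripts of 1000 nt or more, with protein-coding transcripts and with its highest transcript, and -0.26 and -0.27 for Mdh2 with protein-coding transcripts and with its highest transcript. By construction, the first of these alternatives leaves out short transcripts and the protein-coding fit leaves out non-coding ones. For Acsl4 the transcripts left out are coding and of like length, and the cause was not tested for it or the others.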
